A study of Mus musculus with 6 samples.

Results

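The sirtuin family was followed here as 8 genes, the 7 mammalian sirtuins Sirt1 to Sirt7 and Nampt, which makes the precursor of their cosubstrate. The genes were found by their symbols in the array annotation, not by any measured value. Each gene had 1 probe set, so that 8 probe sets of the 22206 tested are described, 8 of 22662 gene symbols. The cells were C2C12 myotubes, a single mouse line of skeletal muscle myoblasts that fuse when serum is lowered, taken on day 6 of differentiation. Groups were Ctrl-M, STEE30-M and STEE50-M, with 2 arrays of total RNA each. STEE is an ethanol extract of sugarcane tops, given for 6 h in serum-free Opti-MEM at 30 µg/mL in STEE30-M and at 50 µg/mL in STEE50-M. Ctrl-M was untreated. Its labels give no hours and do not say whether it received Opti-MEM or ethanol. The arrays of a group are biological replicates by the paper and duplicates by the deposited description, so that p-values measure only the spread between arrays, which may be technical.

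Sirtuins remove acetyl and other acyl groups from lysines of histones, transcription factors and enzymes. Each reaction splits a molecule of NAD and releases nicotinamide, and NAMPT starts the salvage of nicotinamide back to NAD. In skeletal muscle, SIRT1 is known for deacetylating PGC-1α, a coactivator of mitochondrial genes, and SIRT3 for deacetylating enzymes of the mitochondrial matrix.

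The windows just upstream of Sirt1 and Nampt are shown because these were the only members whose mean signal was lower at both doses than in Ctrl-M and did not turn to the other side when any single array was left out at either dose. Each line holds the 150 bases directly before the annotated start, 5′ to 3′ on the strand of the gene, from the RefSeq annotation of GRCm38.p6. Capitals mark the E-box CACGTG, a site read by MYC, USF and CLOCK proteins, and the GC box GGGCGG or its complement CCGCCC, a site read by SP1.
Sirt1: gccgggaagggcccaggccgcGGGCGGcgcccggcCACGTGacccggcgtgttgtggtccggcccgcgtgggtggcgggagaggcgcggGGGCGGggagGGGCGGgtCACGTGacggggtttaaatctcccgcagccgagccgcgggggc
Nampt: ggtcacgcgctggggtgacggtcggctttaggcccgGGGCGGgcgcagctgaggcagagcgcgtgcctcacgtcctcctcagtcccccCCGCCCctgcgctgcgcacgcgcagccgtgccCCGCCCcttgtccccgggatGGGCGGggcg
The Sirt1 window lies at chr10:63339036-63339185 on the minus strand and the Nampt window at chr12:32820185-32820334 on the plus strand. Sirt1 held 2 E-boxes, 115 and 43 bases before its start, and Nampt held none. In the 250 bases searched on both strands, Sirt1 had 6 GC boxes and Nampt had 5. Of 32851 promoter windows of the same length, 6.02% held an E-box, 0.429% held more than 1, and 16.7% held more than 1 GC box. No E-box was found in the windows of the other 6 members. The cAMP response element TGACGTCA, in 1.55% of all windows, and the FoxO site TGTTTAC, in 3.17%, were found in no member. These are matches of letters, and binding was not measured.

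The arrays were alike as a whole. The median log2 signal of an array was between 5.70 and 5.77, and arrays of a group correlated at 0.9913 to 0.9941 against 0.9921 to 0.9938 between groups. Of 12 myotube markers 11 were on the array (Mymk was not), and all 11 were above background, with a mean log2 signal per array of 13.69 to 14.70 that was highest in STEE50-M replicate 2. Of the 5 markers of myoblasts and reserve cells 4 were above background, Pax7 was not, and their mean ran from 10.47 to 10.96. Of the markers of other cells only Cd68, 1 of 5 of macrophages and blood, was above background, with a list mean of 4.02 to 4.46. None of the 4 markers each of endothelial cells, adipocytes and hepatocytes was above it. Background here is a log2 signal of 5.32, the 95th percentile of 1488 probe sets of smell and taste receptors, averaged over the 6 arrays. A probe set under it may carry signal that is not its transcript. In bulk RNA, fewer cells of a type and less RNA per cell cannot be told apart.

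Of the 8 members, 6 were above background and Sirt5 and Sirt7 were not. Sirt4 was close to it, above on 3 of 6 arrays. Signals of different probe sets were not compared with each other, since probes differ in how well they bind. A member was called when limma gave an unadjusted p under 0.05 and the fold was at least 1.2, a log2 difference of 0.263. These cut-off values are those of the study, with its fold read as linear. They were applied here to the array signals. Those lie on another scale than the authors' deposited group averages, with an SD over probe sets of 3.39 against 2.23 in Ctrl-M. The p came from limma and not from the study's own test. Calls and folds given here therefore hold for the array scale and may differ from those of the study. No member was called in any comparison. For STEE30-M against Ctrl-M 0 of 8 members were called, beside 4.09% of all probe sets. At 50 µg/mL the count was 0 of 8, beside 5.05%, and between the doses 0 of 8, beside 4.61%. No probe set of the array reached an adjusted p under 0.05 either, where 909, 1121 and 1023 probe sets passed the unadjusted thresholds and the smallest adjusted p was 0.998, 0.952 and 0.997 by limma with Benjamini-Hochberg adjustment. With 2 arrays against 2, no exact permutation test of a single gene can go below p = 0.333.

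**Figure D1:**
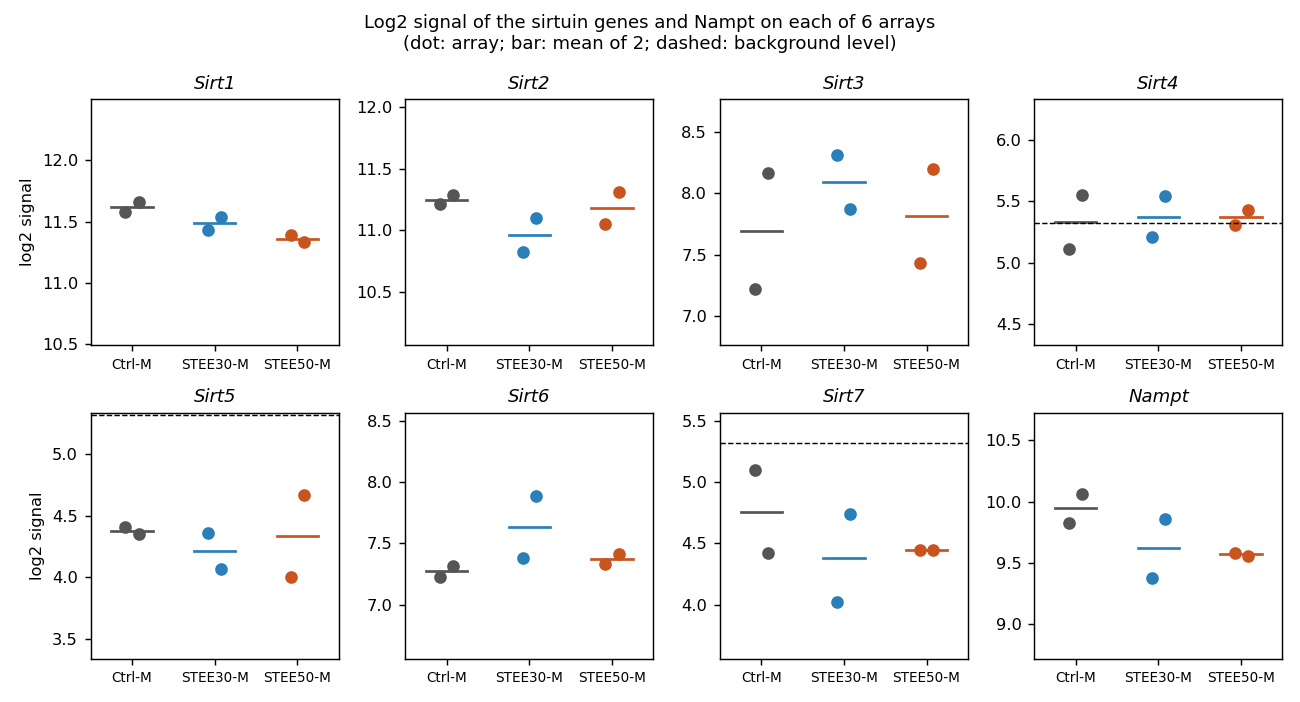
Log2 signal (y axis) of the 8 members on each array, as points by group (x axis: Ctrl-M, STEE30-M, STEE50-M, 2 arrays each), with a bar at each group mean and the background level of 5.32 as a dashed line. Sirt1 is the only member whose 3 groups do not overlap, a pattern whose share over all probe sets was not counted. Sirt5 and Sirt7 lie under the line on every array.

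Sirt1, the nuclear deacetylase of PGC-1α, p53 and FoxO proteins (chr10:63319005-63339035), was lower in signal on every treated array than on either control array. Its log2 signals were 11.58 and 11.66 in Ctrl-M, 11.43 and 11.54 in STEE30-M, and 11.39 and 11.33 in STEE50-M. All 3 groups were apart, in the order Ctrl-M, STEE30-M, STEE50-M, within a span of 0.33 over the 6 arrays. The share of all probe sets with this pattern was not counted. In single comparisons, 15.8% were lower in STEE30-M and 18.6% in STEE50-M than in Ctrl-M, and 14.9% in STEE50-M than in STEE30-M. The difference of Sirt1 from Ctrl-M was -0.14 (SE 0.20) at 30 µg/mL and -0.26 (SE 0.20) at 50 µg/mL, with an adjusted p = 0.998 and an adjusted p = 0.978 by limma. Between the doses it was -0.12 (SE 0.20, adjusted p = 0.997), so that no neighbours in this order differed beyond the fitted spread. The arrays of a group differed by less than this spread, with SDs of 0.06, 0.08 and 0.04 (n = 2 each), since limma draws each probe set towards the variance of all of them. Without that step the STEE50-M difference passed an unadjusted p under 0.05 in a plain linear model (adjusted p = 0.982), and only its fold kept it from being called. On the array scale this fold was 0.835 (95% interval by limma 0.609 to 1.14), a little short of a 1.2-fold change on that scale.

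Nampt, the rate-limiting enzyme of NAD salvage (chr12:32820335-32853369), had the largest difference of the members at 50 µg/mL, without passing. Its log2 signals were 9.83 and 10.06 in Ctrl-M, 9.38 and 9.86 in STEE30-M, and 9.58 and 9.56 in STEE50-M. Both STEE50-M arrays were under both control arrays, while STEE30-M replicate 2 lay between the control arrays. The difference was -0.33 (SE 0.23, adjusted p = 0.998) at 30 µg/mL and -0.38 (SE 0.23, adjusted p = 0.956 by limma) at 50 µg/mL, a fold of 0.771 with a 95% interval of 0.533 to 1.12. Between the doses it was -0.05 (SE 0.23, adjusted p = 0.997). With 1 array left out in turn, the difference ran from -0.56 to -0.09 at 30 µg/mL, smallest without STEE30-M replicate 1, and from -0.49 to -0.26 at 50 µg/mL. Another gene, Gdap10, overlaps the Nampt locus in the annotation.

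Sirt6 and Sirt7 act on chromatin, Sirt6 at telomeres and at genes of glucose metabolism and Sirt7 in the nucleolus. Sirt6 (chr10:81621787-81627792) read 7.23 and 7.32 in Ctrl-M, 7.38 and 7.89 in STEE30-M, and 7.33 and 7.41 in STEE50-M, as log2 signals. All 4 treated arrays were above both controls, although the lowest of them by no more than the rounding of the deposited values, and STEE30-M replicate 2 stood above the rest. The share of all probe sets with all 4 above was not counted. The difference of Sirt6 was 0.36 (SE 0.23, adjusted p = 0.998) at 30 µg/mL and 0.10 (SE 0.23, adjusted p = 0.997 by limma) at 50 µg/mL. Without STEE30-M replicate 1 the 30 µg/mL difference was 0.62 and past the unadjusted threshold (adjusted p = 0.732 by limma), the only setting of any tried that called a member, and the group then rested on 1 array. Without STEE30-M replicate 2 it was 0.11. Sirt7 (chr11:120618371-120625014), whose probe set also names the microRNA gene Mir6936, gave 5.10 and 4.42 in Ctrl-M, 4.02 and 4.74 in STEE30-M, and 4.45 on both STEE50-M arrays. All of these log2 signals are under background, the groups overlapped, and the differences from Ctrl-M were -0.38 and -0.31 (SE 0.31 each), the first of them -0.74 to -0.02 with 1 array left out.

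Sirt2, the mainly cytosolic tubulin deacetylase (chr7:28766752-28788665), was above background on every array. Its log2 signals were 11.21 and 11.29 in Ctrl-M, 10.82 and 11.10 in STEE30-M, and 11.05 and 11.31 in STEE50-M. Both STEE30-M arrays were under both controls, by a mean of -0.29 (SE 0.22, adjusted p = 0.998), whereas the STEE50-M arrays enclosed the controls, with a difference of -0.07 (SE 0.22, adjusted p = 0.997 by limma). The 30 µg/mL difference ran from -0.43 to -0.15 with 1 array left out. The step between the doses, 0.22, was as large as its SE (0.22, adjusted p = 0.997).

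The mitochondrial sirtuins overlapped between all groups. Sirt3 (chr7:140863663-140882309), the main mitochondrial deacetylase, read 7.22 and 8.17 in Ctrl-M, 8.31 and 7.87 in STEE30-M, and 7.43 and 8.20 in STEE50-M, as log2 signals. Its spread within Ctrl-M (SD 0.67, n = 2) was larger than either difference from Ctrl-M, 0.39 and 0.12 (SE 0.37 each), and it spanned 1.09 over the 6 arrays, the widest range of the members. Ric8a overlaps its locus in the annotation.

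Sirt4, an ADP-ribosyltransferase and lipoamidase known for restraining glutamate dehydrogenase and pyruvate dehydrogenase (chr5:115478006-115490264), stayed within 0.44 over all arrays. Its log2 signals were 5.11 and 5.55, 5.21 and 5.54, and 5.31 and 5.43 in Ctrl-M, STEE30-M and STEE50-M. Both differences from Ctrl-M were 0.04 (SE 0.24). Sirt5, which removes succinyl and malonyl groups (chr13:43365389-43395203), was under background on all 6 arrays, with its highest log2 signal, 4.67, on STEE50-M replicate 2 and means of 4.38 ± 0.04, 4.21 ± 0.21 and 4.33 ± 0.47 (SD, n = 2) in the same order. Its differences were -0.16 and -0.04 (SE 0.26 each), and no direction can be read from a probe set under background.

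**Figure D2:**
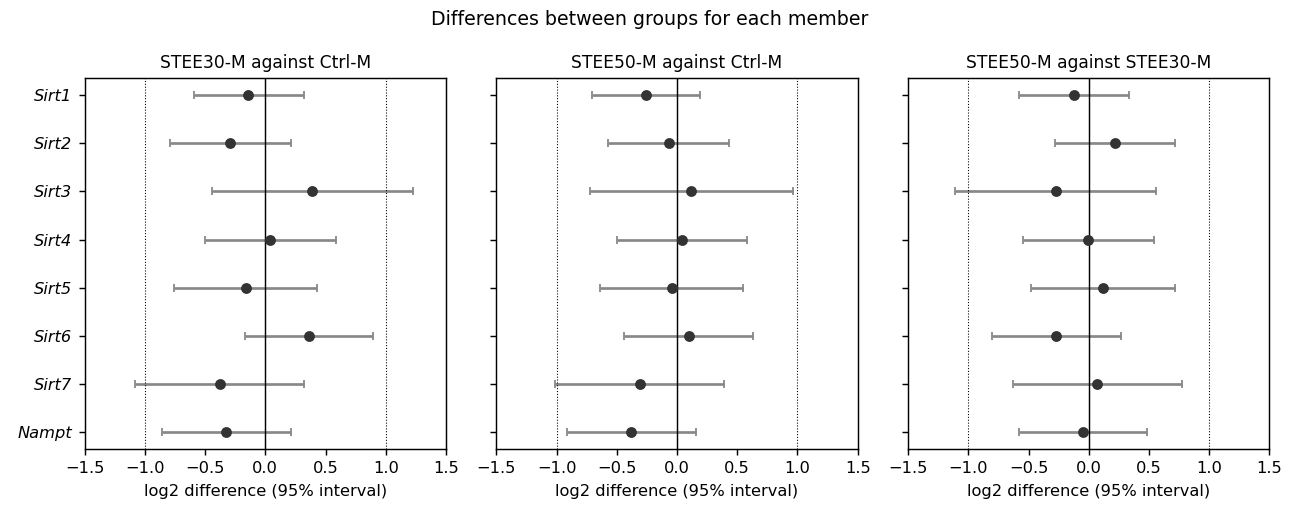
Log2 difference of each member with its 95% interval from limma, for each dose against the controls and for the higher dose against the lower, with 2 arrays in each group and dotted lines at a 2-fold change either way. All 24 intervals hold 0, and that of Sirt3 is the widest.

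All 24 of the 24 intervals (95%, limma) held 0. Intervals of Sirt5 and Sirt7 describe probe sets under background and set no limit on a change of their transcripts. Of the 6 members above background, the interval at 30 µg/mL stayed within a 2-fold change either way for 5, with Sirt3 (-0.44 to 1.23 on the log2 scale) as the exception. At 50 µg/mL it did so for 6 of 6, and between the doses for 5 of 6, all but Sirt3 (-1.11 to 0.56). Sirt4 is counted here although it was close to background, above it on 3 of 6 arrays. Its intervals may therefore set no firm limit on a change of its transcript. A rise of 1.2-fold lay outside the interval of Sirt2 (-0.79 to 0.21) and Nampt (-0.86 to 0.21) at 30 µg/mL and of Sirt1 (-0.71 to 0.19) and Nampt (-0.91 to 0.16) at 50 µg/mL. A fall of that size lay outside the interval of Sirt6 alone (-0.17 to 0.89), at 30 µg/mL. For the other members above background at each dose, the interval held 1.2-fold changes in both directions.

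Counted over the family, the signs were mixed. For STEE30-M against Ctrl-M, 1 member (Sirt6) lay with both arrays above both controls and 2 (Sirt1 and Sirt2) with both below, beside 14.5% and 15.8% of all probe sets. For STEE50-M the counts were 1 above (Sirt6) and 2 below (Sirt1 and Nampt), beside 16.1% and 18.6%. Between the doses Sirt1 alone was apart, lower in STEE50-M, beside 13.5% of probe sets higher and 14.9% lower, so that 0 of 8 members were higher and 1 of 8 lower. Of the 6 members above background, 3 had a positive and 3 a negative difference at each dose, and 1 a positive and 5 a negative one between the doses. Over all 8, with Sirt5 and Sirt7 from under background, the medians were -0.15, -0.06 and -0.03 beside -0.01, -0.01 and -0.00 over all probe sets. The comparisons with Ctrl-M share its 2 arrays, and the values of both are therefore given side by side only.

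The deposited averages of each group lie on another scale, with an SD over probe sets of 2.23 in Ctrl-M against 3.39 on the arrays, and were only compared for sign. The authors' averages of Sirt1 were 8.77 (Ctrl-M), 8.65 (STEE30-M) and 8.59 (STEE50-M), while those of Nampt were 7.55, 7.31 and 7.33. All 8 members had the same sign as on the arrays for STEE30-M against Ctrl-M. For STEE50-M 6 of 8 did, since the averages of Sirt5 and Sirt6 were equal to those of Ctrl-M. Between the doses 6 of 8 did, with Sirt7 at -0.01 against 0.07 on the arrays and Nampt at 0.02 against -0.05.

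Genes that make or use NAD, regulate sirtuins or are their substrates were read as 98 companion genes in 6 lists. Of these, 1 was called at 30 µg/mL, 2 at 50 µg/mL and 1 between the doses, at the same thresholds and beside the same 4.09%, 5.05% and 4.61% of all probe sets. None had an adjusted p under 0.05 by limma. In the list of NAD synthesis, 0 of 23 genes were called in any comparison and 10 were above background, with median log2 differences of -0.03, 0.07 and 0.02. Slc25a51, which carries NAD into mitochondria, came nearest at 30 µg/mL. Its log2 signals were 12.34 and 12.34 in Ctrl-M, 12.71 and 13.22 in STEE30-M, and 13.19 and 12.53 in STEE50-M. All treated arrays were above both controls, with differences of 0.62 (SE 0.28, adjusted p = 0.998 by limma) and 0.52. Over all probe sets, 14.5% at 30 µg/mL and 16.1% at 50 µg/mL had both treated arrays above both controls. The share with all 4 above was not counted, here or for Mlycd and Myod1 below. The 30 µg/mL difference did pass the unadjusted thresholds with only the arrays compared, with a variance prior following the signal, without dim probe sets and without STEE30-M replicate 1, and the 50 µg/mL one with that prior and without STEE50-M replicate 2. With 1 array left out they ran from 0.37 to 0.88 and from 0.19 to 0.85. Here and below, leaving out either array of the group not compared gave the same p as fitting only the arrays compared. Nmnat2, which joins the NAD precursor to ATP, read 6.81 and 6.78, 7.57 and 6.66, and 7.57 and 7.23 as log2 signals, so that 3 of 4 treated arrays were above the controls and 1 was below. Its log2 differences were 0.32 and 0.60 (SE 0.30 each). The 30 µg/mL one passed without STEE30-M replicate 2, at 0.78, and turned to -0.13 without replicate 1. The 50 µg/mL one passed with only the arrays compared and ran from 0.44 to 0.78 with 1 array left out. Between the doses it passed without STEE30-M replicate 1, at 0.74. Nmrk1, the kinase that makes the same precursor from nicotinamide riboside, had the largest difference of the list and is named for that after its values were seen. It read 8.58 and 8.39 in Ctrl-M, 7.58 and 8.03 in STEE30-M, and 6.88 and 8.41 in STEE50-M. Both STEE30-M arrays were below the controls and STEE50-M replicate 2 lay between them. Its log2 differences were -0.68 and -0.84 (SE 0.43 each). The first passed the unadjusted thresholds with only the arrays compared, and the second ran from -1.60, past them, without STEE50-M replicate 2 to -0.07 without replicate 1. Between the doses it passed without STEE50-M replicate 2, at -0.93. Haao of the kynurenine route and the transporter gene Slc12a8, both under background, had differences of 0.50 (SE 0.23) and -0.41 (SE 0.20) at 50 µg/mL.

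Among 17 genes that consume NAD, 15 above background, 1 was called. Bst1 (CD157), an ectoenzyme that cleaves NAD, had log2 signals of 6.04 and 6.03 in Ctrl-M, 5.80 and 6.14 in STEE30-M, and 5.33 and 5.58 in STEE50-M. Both STEE50-M arrays were under all 4 others, a pattern whose share over all probe sets was not counted. Against Ctrl-M alone 18.6% of all probe sets had both STEE50-M arrays lower, and against STEE30-M alone 14.9%. The difference of Bst1 in STEE50-M was -0.58 against Ctrl-M (SE 0.22, adjusted p = 0.952) and -0.52 against STEE30-M (SE 0.22, adjusted p = 0.997 by limma). The call against STEE30-M was lost with only the arrays compared, without moderation, when the variance prior followed the signal, and without STEE30-M replicate 2 or STEE50-M replicate 1. The call against Ctrl-M was lost when the variance prior followed the signal and without Ctrl-M replicate 1, Ctrl-M replicate 2 or STEE50-M replicate 1.

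In the list of 20 mitochondrial substrates of sirtuins, 17 above background, 1 gene was called, Mlycd, at both doses. Mlycd encodes malonyl-CoA decarboxylase, which removes the inhibitor of fatty acid entry into mitochondria and whose protein SIRT4 deacetylates. Its log2 signals were 6.03 and 6.08 in Ctrl-M, 6.80 and 6.76 in STEE30-M, and 6.68 and 6.43 in STEE50-M, with every treated array above both controls. Its difference from Ctrl-M was 0.72 (SE 0.21, adjusted p = 0.998) at 30 µg/mL and 0.50 (SE 0.21, adjusted p = 0.952 by limma) at 50 µg/mL. Mlycd was picked out among 98 companion genes. The alternatives below use the same arrays, so they do not test whether it was picked by chance. The 30 µg/mL difference passed under every alternative that kept the 1.2-fold minimum, at 0.70 to 0.75 with any array left out. The 50 µg/mL call was lost when the variance prior followed the signal and without Ctrl-M replicate 1, Ctrl-M replicate 2 or STEE50-M replicate 1. The medians of the mitochondrial list were -0.00, -0.07 and -0.06 on the log2 scale.

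Of 18 nuclear and cytosolic substrates, 16 above background, 0 were called, with median log2 differences of 0.01, 0.05 and 0.09. Ppargc1a, the gene of PGC-1α, read 6.20 and 6.43 in Ctrl-M, 6.65 and 6.36 in STEE30-M, and 6.70 and 6.80 in STEE50-M. Both STEE50-M arrays were above the controls by a mean of 0.43 (SE 0.22, adjusted p = 0.952 by limma) and the STEE30-M arrays overlapped them. Myod1, a factor of muscle commitment, read 8.84 and 8.88, 9.10 and 9.62, and 9.36 and 9.31, again with all treated arrays above both controls. Its log2 differences were 0.50 and 0.47 (SE 0.23 each). The first passed the unadjusted thresholds with a variance prior following the signal, after quantile normalization, without dim probe sets and without STEE30-M replicate 1, and ran from 0.24 to 0.76 with 1 array left out. The second passed with only the arrays compared and ran from 0.45 to 0.50. Foxo1, a transcription factor of atrophy and fasting genes, and Srebf1, one of lipid synthesis, had negative differences. They were -0.28 and -0.18 (SE 0.21 each) for Foxo1, whose STEE30-M arrays (9.38 and 9.24) were below its controls (9.48 and 9.70), and -0.32 and -0.35 (SE 0.25 each) for Srebf1, whose groups overlapped. With 1 array left out they ran from -0.39 to -0.17 and from -0.29 to -0.08 for Foxo1, and from -0.50 to -0.14 and from -0.58 to -0.13 for Srebf1. Those of Ppargc1a ran from 0.05 to 0.34 and from 0.32 to 0.55. None of the 3 genes passed in any of these settings. The other 2 lists had no call in any comparison, neither the 9 regulators of sirtuins, 8 above background, nor the 11 zinc-dependent deacetylases, 10 above background.

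**Figure D3:**
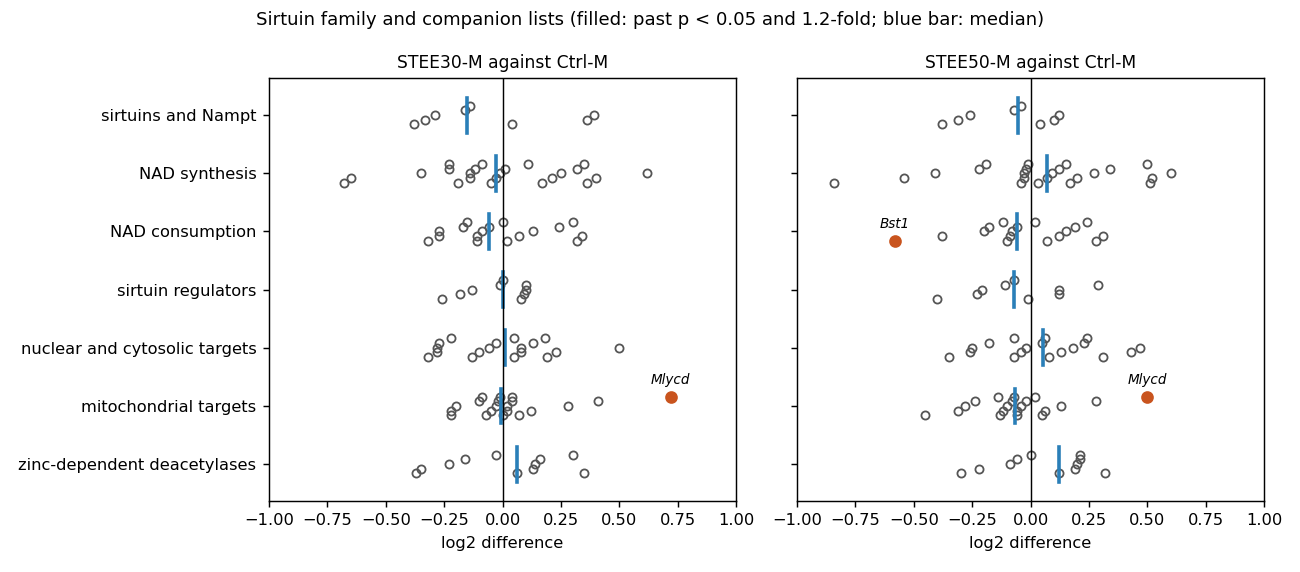
Log2 difference of every companion gene (points) in the 6 lists, beside the 8 members, for STEE30-M and STEE50-M against Ctrl-M, with a bar at each list's median and the genes past the thresholds marked. Mlycd is marked at both doses, and Bst1 at 50 µg/mL.

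Across the 6 arrays, which share 3 groups and 1 normalization, the signals of Sirt1 and Nampt had a Pearson r of 0.865. This was the highest of the 28 member pairs, which ran down to -0.762 for Sirt3 with Sirt7 around a median of 0.163, and the pair had been picked out for its lower signals at both doses. Of 11589 single-symbol probe sets above background, the closest to Sirt1 were Fkbp5 (r = 0.982), an immunophilin induced by glucocorticoids, Brd9 (r = 0.977), a bromodomain protein of a chromatin remodeller, and Chst3 (r = 0.975), a sulfotransferase of chondroitin. Their log2 differences from Ctrl-M were -0.15 and -0.28 for Fkbp5, -0.24 and -0.48 for Brd9, and -0.41 and -0.75 for Chst3, at 30 and 50 µg/mL. Closest to Nampt were Rlim (r = 0.989), a ubiquitin ligase, Tnfrsf12a (r = 0.988), the TWEAK receptor, and Aasdhppt (r = 0.988), which attaches phosphopantetheine to proteins. With 6 arrays, 91 probe sets had an r above 0.9 with Sirt1 and 106 with Nampt, so these names describe likeness over few points.

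**Figure D4:**
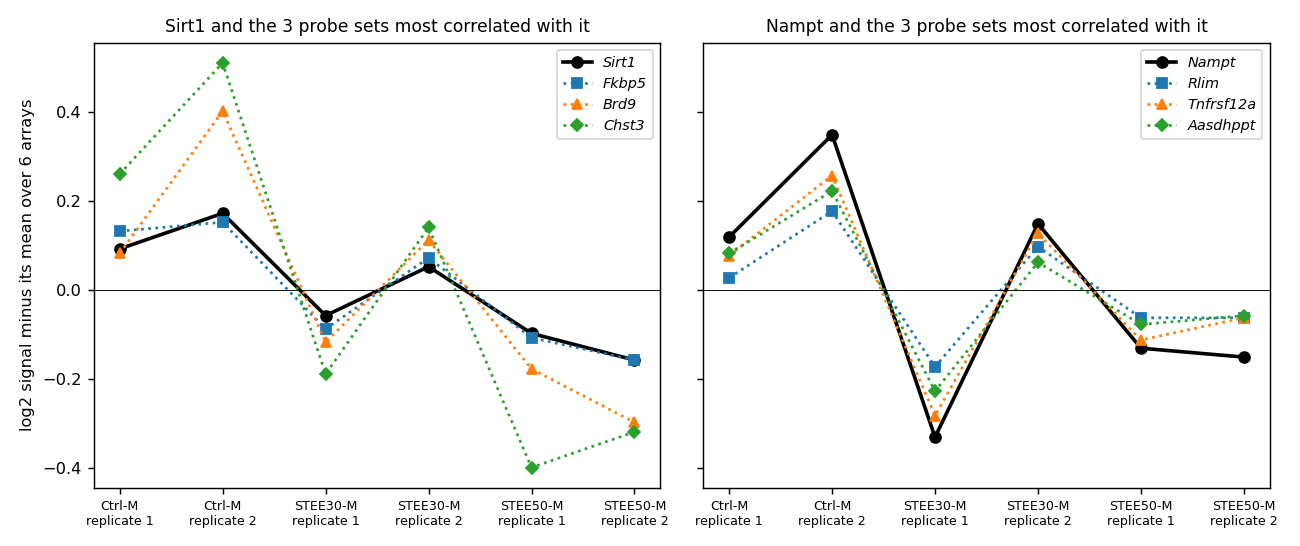
Log2 signal minus its mean over the 6 arrays (y axis) for Sirt1 and Nampt and the 3 probe sets most like each, by array (x axis). Lines only join the values of a probe set, and arrays of a group have no order. Sirt1 and its 3 neighbours are lowest in STEE50-M, and Nampt and its neighbours are lowest on STEE30-M replicate 1.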

How the data were processed

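The authors hybridised labelled single-strand cDNA made from total RNA to Clariom S Mouse arrays and deposited log2 signals with 2 decimals, normalized over the 6 arrays together by SST-RMA in Expression Console 1.4.1.46, per the file headers. Quantile normalization is part of it, so only signal relative to the rest of the array can be compared. A series value table held the same 173076 values. The authors' table of comparisons (averages, folds, p-values, FDR) was used only for gene symbols and group averages.

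Here 6640 of 28846 rows, the array controls, were dropped, and the 22206 others entered the fit unfiltered. Group means were fitted with limma 3.58.1 in R 4.3.3 (lmFit, eBayes, 3 residual and 5.75 prior degrees of freedom), and Benjamini-Hochberg adjustment covered all probe sets. 1 gene was left out of the companion lists and their counts and is not reported here. The brightest probe set stood for a companion gene. The members, companion lists and thresholds were chosen with earlier results of these data known. Genes named are the members, companion genes called in any comparison, up to 3 of the smallest p where none was called in a list, and the 3 probe sets most like Sirt1 and Nampt. Apart from leaving out each of the 6 arrays, 12 alternatives were tried. Depth has no meaning for arrays, and their number limits the precision. Positions are those of GRCm38.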

Additional observations from a re-analysis of the deposited data

How the results depend on the processing

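No member was called under any alternative that kept all arrays. With 1 array left out in turn, 0 to 1 members were called for STEE30-M against Ctrl-M, and 0 to 0 in the other comparisons, while all calls ran from 616 to 1503, 658 to 1331 and 821 to 1579. Without an array its group rested on 1, assumed to vary like the others. Differences that changed sign then were, for STEE30-M, those of Sirt3 (-0.08 to 0.87) and Sirt4 (-0.18 to 0.26). For STEE50-M they were those of Sirt2 (-0.20 to 0.06), Sirt3 (-0.36 to 0.59), Sirt4 (-0.18 to 0.26), Sirt5 (-0.38 to 0.29) and Sirt7 (-0.65 to 0.03). Between the doses they were those of Sirt3 (-0.66 to 0.11), Sirt4 (-0.17 to 0.16), Sirt5 (-0.21 to 0.46), Sirt7 (-0.29 to 0.43) and Nampt (-0.29 to 0.19). Quantile normalization moved Sirt4 between the doses from -0.005 to 0.01.

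Counts of companion genes under alternatives were added after seeing the data. For STEE30-M they were 3 with only the arrays compared, with a variance prior following the signal or without dim probe sets, and 2 unmoderated or after quantile normalization (1 to 8 with an array left out). For STEE50-M they were 5 with only the arrays compared and 4 unmoderated (0 to 8). Between the doses they were 0 with only the arrays compared or the variance prior, and 2 after quantile normalization or with the replicate block (0 to 8). Sign changed with an array left out for Bst1 (-0.23 to 0.11) and Nmnat2 (-0.13 to 0.78) in STEE30-M, and between the doses for Slc25a51 (-0.43 to 0.23), Nmnat2 (-0.17 to 0.74), Nmrk1 (-0.93 to 0.60), Myod1 (-0.28 to 0.23), Foxo1 (-0.01 to 0.20) and Srebf1 (-0.26 to 0.19). The cause was not tested.

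Replicate numbers carried little shared difference over all probe sets: the replicate differences correlated at 0.023 (Ctrl-M with STEE30-M), 0.064 (Ctrl-M with STEE50-M) and -0.008. Whether the arrays were paired by culture or run cannot be read from these values. With the replicate block 0 members were called, and all calls were 920, 1157 and 1090. At the 99th percentile of the receptor probe sets, 5 members were above background. A log2 change of at least 1.2, as the paper words its cut-off, left 29, 19 and 22 calls over all probe sets and 0 members. The paper lists genes with smaller changes among those it called, so the linear reading is the one it used. Groups of 2 arrays do not allow a search for outlying arrays.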
